A study of Mus musculus with 28 samples.

Results

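Cell cycle inhibitors and the p53 pathway were followed in peripheral neural stem cells (pNSCs), brain neural stem cells (NSCs), neural crest stem cells and tissue cells of the mouse. The group was defined by name and holds 9 of the 28244 genes of the count table: the INK4 inhibitors Cdkn2a, Cdkn2b and Cdkn2c, the Cip/Kip inhibitors Cdkn1a and Cdkn1b, the p53 gene Trp53 with Mdm2 and Ccng1, and the retinoblastoma gene Rb1. The genes were picked by name, with earlier results of these data known, and every one of the 9 passed the filter on low counts in each fit.

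The series comprised 28 bulk RNA sequencing samples in 11 groups and 3 experiments. All are labelled as C57BL/6, whereas the study's methods describe CD1 or mixed CD1 and C3H wild-type mice, to which transgenic mice were bred. In the Nes-GFP experiment, where GFP is driven by Nestin regulatory elements, the groups were tail pNSCs, lung pNSCs, brain NSCs, tail cells and lung cells, with 2 samples each. Those labels name only the source, and they were assigned to this experiment because their groups and numbers match the study's description. Its pNSC lines came from GFP+ cells sorted from postnatal tail or adult lung. In the Sox2-GFP experiment, with GFP placed at the Sox2 locus, lung pNSCs from sorted postnatal GFP+ cells and brain NSCs had 3 samples each, and the lung cells of the first experiment served again as tissue. In the Wnt1Cre-mTmG experiment, Wnt1-Cre switches a Tomato reporter to GFP in neural crest cells and their progeny. It held brain NSCs and pNSCs from postnatal tail and postnatal dorsal root ganglion (DRG), with 3 samples each. A further 3 samples were neural crest stem cells (NCSCs) from wild-type adult DRG. The study's methods describe brain NSCs from adult or postnatal mice, without an age for each sequenced group. The pNSC lines of this experiment grew from unsorted cells and were Tomato+ and GFP-. Crest-derived cells in which this Cre was not active would also be GFP-. The study reports further evidence against a crest origin. It derived pNSCs from sorted GFP- cells and saw no cluster from sorted GFP+ DRG cells after low-pH treatment. With Sox1-Cre labelling it traced lung and tail pNSCs to neuroepithelial cells. All pNSC and NSC lines were grown in medium with EGF and bFGF, and a pNSC line usually went back to 1 picked cluster, so that replicates of a group may be cultures of 1 clone. No label states that replicates were separate cultures, and p-values therefore measure only the spread between these samples, which may be technical.

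Cyclin-dependent kinases drive a cell from G1 into S phase by phosphorylating RB, which releases E2F transcription factors. INK4 proteins block CDK4 and CDK6, Cip/Kip proteins bind cyclin-CDK complexes more broadly, and p53 switches on Cdkn1a, Mdm2 and Ccng1 after stress or DNA damage. In brain NSCs the Cdkn2a locus, the p53 pathway and Cdkn1a are known to restrain self-renewal, and adaptation to culture commonly changes their activity in many cell types.

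Total counts ranged from 9808246 to 22637031 per sample, with the 6 Wnt1Cre-mTmG brain NSC and DRG pNSC samples at 9808246 to 11431445 and the other 22 at 16700710 or more. Levels are counts-per-million values (cpm), scaled by TMM on a single scale over the 28 samples, and fold changes come from edgeR's quasi-likelihood test within each experiment. A gene was called when its Benjamini-Hochberg adjusted p over all genes tested was under 0.05 and its log2 fold change was at least 1 in size. Each comparison was read against the percentage of all tested genes that were called in it. The 5 NSC markers summed to 2197 to 3452 cpm in the 8 NSC and pNSC groups. They summed to 80.5 to 84.9 in tail cells, 291 to 316 in lung cells and 1372 to 1738 in DRG NCSCs. In the NCSCs most of the sum was Nes (1285 cpm) and Sox2 (226), with Olig2 at 14.9. Within the lines, mean Sox1 ran from 8.79 cpm in Sox2-GFP lung pNSCs to 86.3 in Wnt1Cre-mTmG tail pNSCs. Sums of the 4 epithelial, 4 endothelial and 4 leukocyte markers stayed at or below 0.344, 4.92 and 3.95 cpm in those 8 groups. The 3 neural crest markers summed to 15.03 cpm (sum of group means) in Wnt1Cre-mTmG brain NSCs, 10.8 in Wnt1Cre-mTmG tail pNSCs and 9.79 in Sox2-GFP brain NSCs, to 0.374 to 1.58 in the other 5 groups and to 2368 in DRG NCSCs. Sox10 alone exceeded 1 cpm in Wnt1Cre-mTmG and Sox2-GFP brain NSCs (14.5 and 9.44 cpm). Sox10 (7.19) and Ngfr (3.54) did so in Wnt1Cre-mTmG tail pNSCs. The 5 mesenchymal markers reached 378 cpm (sum of group means) in Wnt1Cre-mTmG tail pNSCs, with all 5 over 1 cpm, against 0.421 to 16.5 in the other 7 groups. Replicate 3 of the DRG NCSCs stood apart from its group (chi-square per gene 16.8 and 21 against the other replicates, and 1.09 to 2.82 for all other pairs of replicates). The calls of the 9 genes against NCSCs are given with and without it. All 12 samples of the Wnt1Cre-mTmG fit share an estimate of spread. This replicate therefore also enters the errors and p-values of comparisons there that do not use NCSCs. For Ccng1 in Wnt1Cre-mTmG tail pNSCs against brain NSCs, edgeR's adjusted p was 3.62e-58 in a fit of both groups alone, far smaller than the value printed below.

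The 9 genes lie on 6 chromosomes in the GENCODE annotation of GRCm38. Cdkn2a (ENSMUSG00000044303, chr4:89274471-89294653, minus strand) and Cdkn2b (ENSMUSG00000073802, chr4:89306299-89311039, minus strand) are neighbours, and Cdkn2c is at chr4:109660876-109667189. Cdkn1a is at chr17:29090976-29100727, Cdkn1b at chr6:134920401-134925513 and Rb1 at chr14:73183673-73325822. Trp53 (chr11:69580359-69591873) and Ccng1 (chr11:40748552-40755311) share a chromosome, and Mdm2 is at chr10:117688875-117710758. Counts were per gene, so the Ink4a and Arf transcripts of Cdkn2a, which encode different proteins from alternative first exons, are summed in every value below. Of the 50-base words in the transcripts of Rb1, 707 of 5911 also occur in transcripts of Rcbtb2 or Lpar6, which overlap it on the opposite strand. The share of such words was 8.49% for Cdkn1a, 3.95% for Trp53, 1.32% for Mdm2 and 0 for the other 5 genes. Cdkn1a also overlaps AC167363.2, a gene annotated on the opposite strand. Reads from these words cannot be assigned with certainty.

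Promoter sequences from RefSeq (GRCm38.p6, 250 bases before to 50 after each annotated start) were found for 8 of the 9 genes. Those of Cdkn1a and Ccng1 are shown because these p53 targets differ most between Sox2-GFP lung pNSCs and brain NSCs below, and both Cdkn2a promoters because its count joins 2 transcripts. Sequences run 5' to 3' on the strand of the gene. Capitals mark matches, on either strand, to the CCAAT box (CCAAT), the GC box (GGGCGG), the E2F site (TTTCCCGC) or the p53 decamer consensus, and adjoining or overlapping matches run together. TATAAA (in 13.6% of promoters) and another E2F site (TTTGGCGC, in 0.514%) were also searched, and these letters are not in the 4 windows.

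Cdkn1a, chr17:29090729-29091028, plus strand: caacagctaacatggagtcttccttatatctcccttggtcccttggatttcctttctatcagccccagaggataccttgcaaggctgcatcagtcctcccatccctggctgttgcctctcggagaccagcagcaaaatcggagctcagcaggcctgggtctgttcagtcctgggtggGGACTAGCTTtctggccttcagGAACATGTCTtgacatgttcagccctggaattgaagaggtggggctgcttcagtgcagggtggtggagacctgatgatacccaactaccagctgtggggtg

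Ccng1, chr11:40755237-40755536, minus strand: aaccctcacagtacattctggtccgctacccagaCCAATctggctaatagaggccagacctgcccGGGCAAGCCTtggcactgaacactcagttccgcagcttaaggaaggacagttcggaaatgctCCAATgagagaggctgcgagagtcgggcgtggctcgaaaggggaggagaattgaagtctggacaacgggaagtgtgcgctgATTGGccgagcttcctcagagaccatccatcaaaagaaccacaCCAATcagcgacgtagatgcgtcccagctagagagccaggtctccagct

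Cdkn2a at the Arf start, chr4:89294570-89294869, minus strand: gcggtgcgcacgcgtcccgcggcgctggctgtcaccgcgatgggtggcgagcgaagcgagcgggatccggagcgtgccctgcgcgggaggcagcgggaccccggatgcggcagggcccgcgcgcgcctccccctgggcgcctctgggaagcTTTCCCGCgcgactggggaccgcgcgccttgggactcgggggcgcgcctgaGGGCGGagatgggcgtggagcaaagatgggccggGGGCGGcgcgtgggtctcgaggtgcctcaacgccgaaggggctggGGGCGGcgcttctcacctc

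Cdkn2a at the Ink4a start, chr4:89282143-89282442, minus strand: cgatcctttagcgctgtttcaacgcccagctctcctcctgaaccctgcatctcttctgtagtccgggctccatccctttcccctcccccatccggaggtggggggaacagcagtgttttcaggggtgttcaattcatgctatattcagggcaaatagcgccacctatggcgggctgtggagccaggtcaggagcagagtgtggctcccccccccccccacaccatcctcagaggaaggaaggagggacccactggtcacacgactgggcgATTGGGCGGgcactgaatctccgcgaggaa

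The Cdkn1a window shown holds 2 exact p53 decamers up to 13 bases apart. That arrangement was found in 24 of 32851 RefSeq promoters of this length (0.0731%), while a single decamer occurs in 8.36%. Near matches were not marked, such as tgacatgttc, which directly follows the second decamer and misses the consensus at its first base. The window at the other annotated Cdkn1a start (chr17:29093519-29093818) holds 0 decamers and 2 GC boxes. The Ccng1 window holds 1 decamer and 4 CCAAT boxes, the latter present in 37.4% of promoters. The Arf window holds 3 GC boxes (in 35.7% of promoters) and the E2F site (in 1.07%), and the Ink4a window 1 GC box and 1 CCAAT box. These matches are descriptions of letters and were not tested as binding sites.

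All 9 genes were transcribed in every NSC and pNSC line. Per kilobase of transcript, the mean levels over the 8 NSC and pNSC groups ran from 61.0 to 188 cpm per kb for Ccng1, 36.3 to 128 for Cdkn1a and 24.9 to 80.7 for Cdkn2a. Cdkn1b, Cdkn2c and Trp53 lay between 18.4 and 52.5 cpm per kb, Mdm2 between 12.3 and 21.5, and Rb1 between 9.01 and 16.0. Cdkn2b was the lowest of the 9 at its minimum, from 2.09 to 16.7 cpm per kb. The fold between the lowest and the highest of the 8 group means was 7.98 for Cdkn2b, 3.52 for Cdkn1a, 3.24 for Cdkn2a, 3.08 for Ccng1 and 1.74 to 2.14 for the other 5. For all 9 genes the range of the 3 brain NSC groups overlapped that of the 5 pNSC groups.

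**Figure D1:**
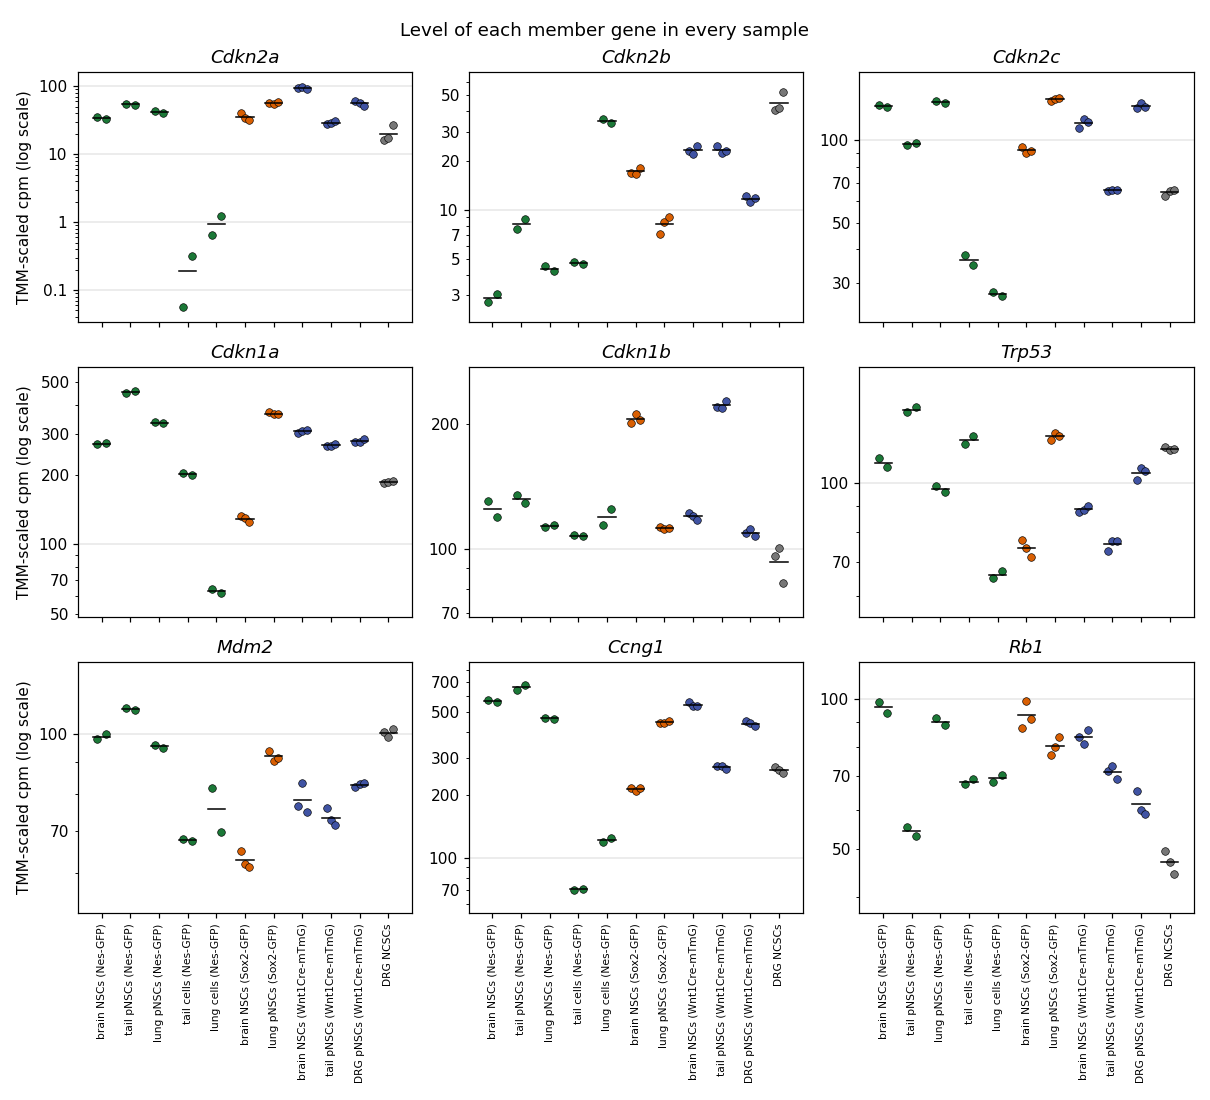
Level of each gene in every sample, in cpm on a logarithmic axis, with 1 panel per gene, 1 column per group, points for samples and bars for group means. Cdkn2a is near 0 in tail and lung cells and from 27.6 to 97.5 cpm in the NSC and pNSC lines, and Cdkn1b stands out in Sox2-GFP brain NSCs and Wnt1Cre-mTmG tail pNSCs.

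Cdkn2a, the source of the tumour suppressors p16Ink4a and p19Arf, differed in opposite directions between pNSCs and brain NSCs in different experiments. In the Nes-GFP experiment its levels were 55.0 and 53.7 cpm in tail pNSCs, 43.0 and 39.7 in lung pNSCs, and 35.2 and 32.7 in brain NSCs. All pNSC samples were above all brain NSC samples there. In the Sox2-GFP experiment lung pNSCs had 57.0, 54.8 and 58.4 cpm and brain NSCs 39.9, 33.5 and 31.95, again without overlap. In the Wnt1Cre-mTmG experiment the order was the opposite, with brain NSCs at 93.9, 97.5 and 92.4 cpm, DRG pNSCs at 61.4, 57.2 and 50.7, and tail pNSCs at 27.6, 29.1 and 31.0.

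In the Wnt1Cre-mTmG experiment Cdkn2a was 3.23-fold lower in tail pNSCs than in brain NSCs (log2 fold change -1.69 ± 0.115 (SE), adjusted p = 7.34e-10), which was the only call among the 9 genes in that comparison, where 18.2% of all tested genes were called. In DRG pNSCs it passed the test without reaching the fold threshold (-0.74 ± 0.115, adjusted p = 4.58e-05), and no gene of the 9 was called there by edgeR or DESeq2, against 9.53% of all genes. At an unadjusted p under 0.05, 8 of the 9 passed. Nes-GFP tail pNSCs and Sox2-GFP lung pNSCs were higher than their brain NSCs by less than the fold threshold (log2 0.68 ± 0.0722 and 0.70 ± 0.0454).

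Cdkn2b encodes p15Ink4b, an inhibitor of CDK4 and CDK6 that TGF-beta induces in many cells. Nes-GFP brain NSCs had the lowest levels of the series, 2.74 and 3.07 cpm, with tail pNSCs at 7.65 and 8.77 and lung pNSCs at 4.51 and 4.24. Sox2-GFP brain NSCs had 16.7, 16.7 and 18.1 cpm and Sox2-GFP lung pNSCs 7.13, 8.46 and 9.06. Wnt1Cre-mTmG brain NSCs (22.8, 21.9 and 24.7 cpm) and tail pNSCs (24.4, 22.2 and 22.9) overlapped, and DRG pNSCs were lower at 12.1, 11.1 and 11.7.

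The direction of the Cdkn2b difference thus depended on the experiment. It was 2.83-fold higher in Nes-GFP tail pNSCs than in brain NSCs (log2 1.501 ± 0.175, adjusted p = 7.72e-17), the only call among the 9 genes against 10.9% of all genes. It was 2.08-fold lower in Sox2-GFP lung pNSCs than in brain NSCs (log2 -1.05 ± 0.0828, adjusted p = 2.73e-36). Leaving out replicate 1 of those lung pNSCs gave -0.96, below the fold threshold. In Wnt1Cre-mTmG DRG pNSCs it was 1.98-fold lower (log2 -0.99 ± 0.117), just short of the threshold.

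Cdkn2c encodes p18Ink4c, which acts on the same kinases. Its lowest levels among the lines were in Wnt1Cre-mTmG tail pNSCs (65.4, 65.8 and 66.0 cpm), followed by Sox2-GFP brain NSCs (94.8, 89.7 and 91.7) and Nes-GFP tail pNSCs (96.0 and 97.5). The other lines were at 111 to 142 cpm. Against brain NSCs the log2 difference was -0.82 ± 0.0418 in Wnt1Cre-mTmG tail pNSCs, -0.46 ± 0.0437 in Nes-GFP tail pNSCs and 0.62 ± 0.0289 in Sox2-GFP lung pNSCs. In Nes-GFP lung pNSCs it did not pass the test (0.04 ± 0.0416, adjusted p = 0.509). Between the Wnt1Cre-mTmG pNSC lines Cdkn2c was called, 2.02-fold lower in tail than in DRG pNSCs (log2 -1.02 ± 0.0415, adjusted p = 6.62e-13), and -0.998 (below the threshold) without DRG pNSC replicate 2.

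Cdkn1a encodes p21Cip1, the CDK inhibitor through which p53 arrests the cycle. Its lowest levels among the lines were in Sox2-GFP brain NSCs, at 132, 130 and 125 cpm, while Sox2-GFP lung pNSCs had 372, 366 and 364. That difference was 2.85-fold (log2 1.51 ± 0.0237, adjusted p too small to be represented). Nes-GFP tail pNSCs held the highest levels, 450 and 458 cpm. Nes-GFP lung pNSCs had 337 and 333, and both groups were above their brain NSCs at 270 and 275. The differences of 0.74 ± 0.0341 and 0.29 ± 0.0345 on the log2 scale passed the test without reaching the fold threshold. In the Wnt1Cre-mTmG experiment the order was the opposite and the distances small, with brain NSCs at 304 to 312 cpm, DRG pNSCs at 277 to 286 and tail pNSCs at 265 to 271.

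Cdkn1b encodes p27Kip1, the inhibitor that accumulates in cells leaving the cycle. It was high in only 2 of the 8 NSC and pNSC groups, Sox2-GFP brain NSCs (202, 211 and 204 cpm) and Wnt1Cre-mTmG tail pNSCs (220, 219 and 227). All samples of the other 6 groups lay between 108 and 135 cpm. In Sox2-GFP lung pNSCs, at 112 to 113 cpm, Cdkn1b was therefore lower than in brain NSCs (log2 -0.88 ± 0.0260, adjusted p = 1.93e-244), and in Wnt1Cre-mTmG tail pNSCs it was higher than in brain NSCs (0.89 ± 0.0519, adjusted p = 8.63e-11). Neither difference reached the fold threshold. It did against DRG pNSCs, where tail pNSCs were 2.03-fold higher (log2 1.02 ± 0.0525, adjusted p = 1.44e-11). With Cdkn2c this made 2 calls of 9 genes between these lines, against 18.0% of all genes. In Nes-GFP tail pNSCs Cdkn1b overlapped brain NSCs (0.08 ± 0.0395, adjusted p = 0.0918).

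Ccng1, cyclin G1, is a p53 target that recruits a phosphatase to MDM2. It was the most abundant of the 9 transcripts per kilobase in all 8 groups of lines and showed the pattern of Cdkn1b turned around. Sox2-GFP brain NSCs had 217, 210 and 216 cpm and Wnt1Cre-mTmG tail pNSCs 274, 276 and 266, against 428 to 676 cpm in the samples of the other 6 groups. In Sox2-GFP lung pNSCs (444, 443 and 455 cpm) Ccng1 was 2.09-fold higher than in brain NSCs (log2 1.06 ± 0.0214, adjusted p too small to be represented). With Cdkn1a higher and Cdkn2b lower, it was one of 3 calls among the 9 genes there, against 15.7% of all genes.

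In Wnt1Cre-mTmG tail pNSCs Ccng1 was lower than in brain NSCs (559, 539 and 538 cpm) by a log2 difference of -0.998 ± 0.0356 (adjusted p = 1.05e-13), which fell just short of the fold threshold. Nes-GFP tail pNSCs (643 and 676 cpm) and lung pNSCs (471 and 465) lay on either side of their brain NSCs (573 and 558), with log2 differences of 0.22 ± 0.0323 and -0.28 ± 0.0326.

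Trp53 itself varied 1.87-fold over the 8 groups. It was lowest in Sox2-GFP brain NSCs (77.3, 74.5 and 71.5 cpm) and Wnt1Cre-mTmG tail pNSCs (73.7, 77.0 and 76.8), whose samples overlapped, and highest in Nes-GFP tail pNSCs (137 and 141). The log2 difference from brain NSCs was 0.73 ± 0.0309 in Sox2-GFP lung pNSCs (adjusted p = 9.17e-121), 0.35 ± 0.0408 in Nes-GFP tail pNSCs and 0.23 ± 0.0403 in DRG pNSCs. It was -0.23 ± 0.0394 in Wnt1Cre-mTmG tail pNSCs and -0.18 ± 0.0424 in Nes-GFP lung pNSCs.

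Mdm2, the ubiquitin ligase that degrades p53 and is switched on by it, varied least of the 9 (1.74-fold). Its samples ran from 61.4 cpm in Sox2-GFP brain NSCs to 110 in Nes-GFP tail pNSCs. Only in Sox2-GFP lung pNSCs (93.9, 90.5 and 91.4 cpm) did it differ from brain NSCs (64.9, 62.0 and 61.4) by more than 0.15 on the log2 scale (0.55 ± 0.0342, adjusted p = 1.32e-57). In Nes-GFP lung pNSCs, Wnt1Cre-mTmG tail pNSCs and DRG pNSCs the differences of -0.06 ± 0.0448, -0.09 ± 0.0464 and 0.08 ± 0.0482 did not pass the test.

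Rb1 encodes RB, the substrate on which the INK4 and Cip/Kip inhibitors converge. Its fitted difference from brain NSCs was negative in all 5 pNSC groups and passed the test in 4. Nes-GFP tail pNSCs, at 55.2 and 53.2 cpm against 98.7 and 93.7 in brain NSCs, had the largest of these differences (log2 -0.83 ± 0.0513, adjusted p = 6.13e-57). It was -0.45 ± 0.0544 in DRG pNSCs (65.5, 59.98 and 58.9 cpm), -0.23 ± 0.0510 in Wnt1Cre-mTmG tail pNSCs and -0.21 ± 0.0322 in Sox2-GFP lung pNSCs. In Nes-GFP lung pNSCs (91.4 and 88.8 cpm) it was -0.10 ± 0.0473 and did not pass (adjusted p = 0.0707). Rb1 is the member with the largest share of sequence words in common with overlapping genes.

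**Figure D2:**
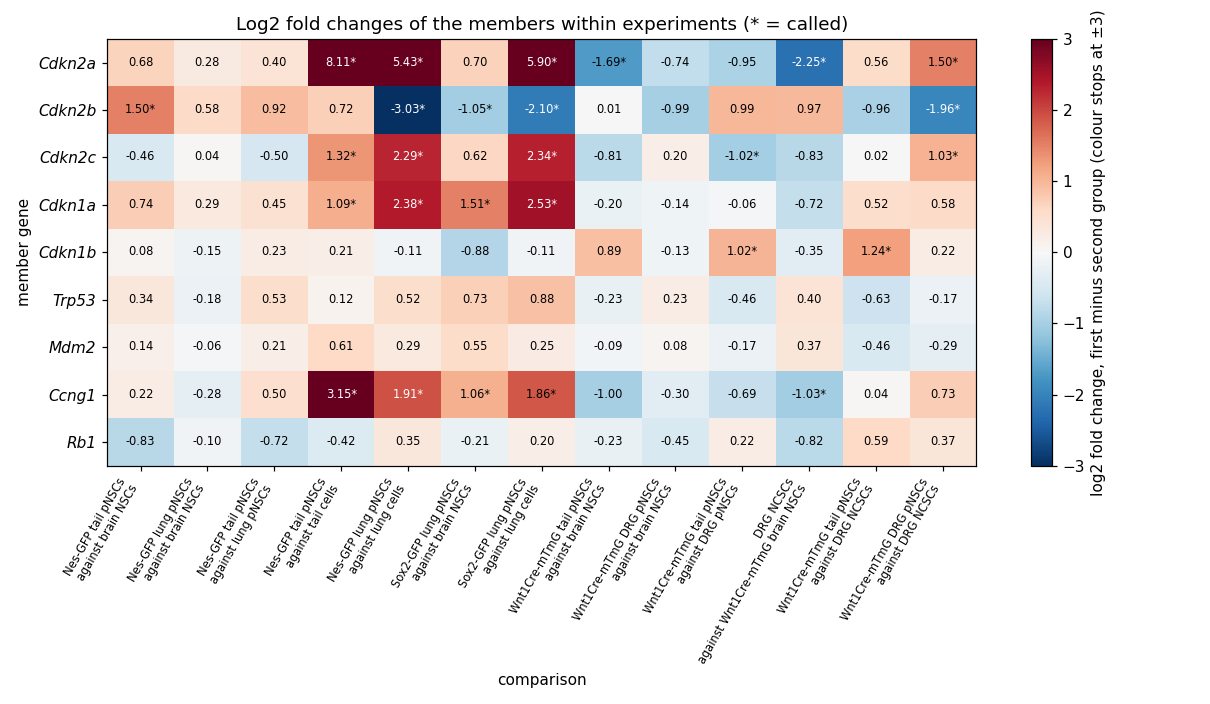
Log2 fold change of each gene (rows) in each comparison within an experiment (columns), on a colour scale that stops at 3 in either direction, with asterisks on calls. The Sox2-GFP column against lung cells uses the lung cells of the Nes-GFP experiment. The columns against tail or lung cells hold 4 to 5 calls each, and the 5 columns of pNSCs against brain NSCs hold 0 to 3.

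Counted over the group, 1 of the 9 genes was called in Nes-GFP tail pNSCs against brain NSCs, 0 in lung pNSCs (8.71% of all genes) and 0 between tail and lung pNSCs (12.9% of all genes). By adjusted p alone, with edgeR, 8, 6 and all 9 genes passed in these comparisons, beside 49.1%, 40.3% and 53.3% of all genes. At an unadjusted p under 0.05 they were 9, 7 and 9, and DESeq2 gave 1, 0 and 0 past both thresholds. For Sox2-GFP lung pNSCs all 9 passed by adjusted p alone (65.5% of all genes), for Wnt1Cre-mTmG tail pNSCs 7 (65.5%) and for DRG pNSCs 7 (45.9%). The 5 counts past both thresholds were near or below the share of all genes except in Sox2-GFP lung pNSCs, with 3 of 9 beside 15.7%.

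Against cells of the same organ, pNSC lines were higher in Cdkn2a, Cdkn2c, Cdkn1a and Ccng1 in all 3 comparisons. Both lung comparisons used the same lung cells, so they are not independent. These lung cells came from the Nes-GFP experiment. For Sox2-GFP lung pNSCs the cell type and the experiment therefore cannot be told apart. Donor age may differ there too, since that line was postnatal and the age of these lung cells is not given. In all 3 comparisons, growth of the lines in medium with EGF and bFGF also cannot be told apart from cell type. Tail cells had 1 and 5 counts of Cdkn2a in their samples and lung cells 12 and 20. The pooled ratio of Cdkn2a to tail cells was 303 (exact 95% interval 139 to 827, counting error only) for Nes-GFP tail pNSCs. To lung cells it was 44.6 (31.5 to 65.5) for Nes-GFP lung pNSCs and 61.1 (43.2 to 89.5) for Sox2-GFP lung pNSCs. The range of the lines was 27.6 to 97.5 cpm for Cdkn2a, which lay far above the highest tissue sample at 1.25.

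Ccng1 was 8.84-fold higher in Nes-GFP tail pNSCs than in tail cells (70.0 and 70.7 cpm), with a log2 difference of 3.15 ± 0.0394. It was 3.76-fold and 3.63-fold higher in Nes-GFP and Sox2-GFP lung pNSCs than in lung cells (119 and 124 cpm). Cdkn1a rose 2.13-fold over tail cells (202 and 199 cpm) and 5.21-fold and 5.77-fold over lung cells (63.9 and 61.5). Cdkn2c, at 38.0 and 34.9 cpm in tail and 27.9 and 27.1 in lung cells, rose 2.50-fold, 4.90-fold and 5.05-fold. Cdkn2b went the other way in lung, with 36.0 and 33.7 cpm in lung cells and an 8.14-fold (log2 -3.03 ± 0.127, adjusted p = 4e-124) and 4.30-fold (-2.10 ± 0.0798, adjusted p = 4.92e-152) lower level in the Nes-GFP and Sox2-GFP lines. Over tail cells it was higher by 0.72 ± 0.165, under the threshold.

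Cdkn1b, Trp53, Mdm2 and Rb1 differed from tissue by less than the threshold in all 3 comparisons (log2 -0.42 to 0.88). In total 4 of 9 genes were called in tail (46.7% of all genes), and 5 of 9 in each lung comparison (55.0% and 56.3% of all genes). The median log2 difference of all genes was -0.16, -0.15 and -0.12 in these comparisons and moved between -0.24 and -0.08 over the alternative settings. The tissue cells held other cell types, with mesenchymal markers at 73010 cpm in tail and leukocyte, endothelial and epithelial markers at 3851 to 10790 cpm in lung. Fewer cells of a type and less RNA per cell cannot be told apart in bulk samples, and the part of these cells in the differences was not tested.

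Against DRG NCSCs, the reference for cells of the neural crest, the 2 Wnt1Cre-mTmG pNSC groups differed in different inhibitors. The NCSCs came from adult wild-type mice and these pNSCs from postnatal Wnt1Cre-mTmG mice. Cell type, age and genotype therefore cannot be told apart here. NCSCs had 16.3, 17.2 and 26.5 cpm of Cdkn2a, the last in the sample that stood apart, and 41.0, 41.9 and 52.3 of Cdkn2b. DRG pNSCs were 2.84-fold higher in Cdkn2a (log2 1.51 ± 0.127, adjusted p = 5.67e-09), 3.88-fold lower in Cdkn2b (-1.96 ± 0.103, adjusted p = 6.8e-12) and 2.05-fold higher in Cdkn2c (1.03 ± 0.0418, adjusted p = 1.47e-13). These were 3 of 9 genes against 38.3% of all genes. Without NCSC replicate 3 they were 1.75, -1.84 and 1.05, all still called. Scaling by DESeq2 or by relative log expression, or no filter, took Cdkn2c to 0.98 to 0.99.

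Tail pNSCs were called against NCSCs in Cdkn1b alone, 2.36-fold higher (log2 1.24 ± 0.0510, adjusted p = 1.68e-13, and 1.17 without NCSC replicate 3), where 37.9% of all genes were called. NCSCs had 96.0, 101 and 82.8 cpm of Cdkn1b, below every NSC and pNSC sample. Cdkn2c (0.02, adjusted p = 0.706, and 0.03 without that replicate) and Ccng1 (0.04, adjusted p = 0.349, and 0.02 without it) overlapped between tail pNSCs and NCSCs, and their sign changed with the scaling. NCSCs against brain NSCs gave 2 calls of 9 (36.9% of all genes), Cdkn2a 4.75-fold lower (-2.25 ± 0.122, adjusted p = 1.07e-11, and -2.49 without replicate 3) and Ccng1 2.05-fold lower (-1.04 ± 0.0357, adjusted p = 1.53e-14, and -1.01 without it). Under DESeq2 and relative log expression scaling Ccng1 came to -0.99. The NCSC samples held 2783 to 3431 cpm of mesenchymal and 587 to 620 cpm of leukocyte markers, and the part of these in the values was not tested. Rb1 was lower in NCSCs (49.5, 47.1 and 44.6 cpm) than in every other sample, whereas Cdkn2b was highest there.

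Lines of the same organ in different experiments also differed from each other. Here the line, the mouse, the experiment and, for lung (adult in Nes-GFP, postnatal in Sox2-GFP), the age cannot be told apart. Between the Nes-GFP and Sox2-GFP brain NSCs, 3 of 9 genes were called (19.0% of all genes): Cdkn2b was 5.88-fold lower (log2 -2.56 ± 0.139, adjusted p = 1.38e-18), Ccng1 2.64-fold higher (1.40 ± 0.0344, adjusted p = 2.74e-29) and Cdkn1a higher (1.08 ± 0.0326, adjusted p = 1.77e-26) in the Nes-GFP line. Nes-GFP against Wnt1Cre-mTmG brain NSCs gave 2 calls (12.5% of all genes), Cdkn2b 7.95-fold lower (-2.99 ± 0.140) and Cdkn2a 2.79-fold lower (-1.48 ± 0.103), while Cdkn1b and Ccng1 did not pass (adjusted p = 0.377 and 0.227). Sox2-GFP against Wnt1Cre-mTmG brain NSCs gave 3 calls, all lower (15.5% of all genes), in Cdkn2a (-1.43 ± 0.0911), Cdkn1a (-1.26 ± 0.0305) and Ccng1 (-1.35 ± 0.0322).

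Between the tail pNSC lines, Ccng1 was 2.42-fold higher (log2 1.28 ± 0.0340, adjusted p = 3.09e-28) and Cdkn2b 2.81-fold lower (-1.49 ± 0.108, adjusted p = 5.89e-15) in the Nes-GFP line, 2 of 9 genes beside 20.2% of all genes. The lung pNSC lines were much closer. None of the 9 genes was called between them by edgeR or DESeq2 (9.94% of all genes), 5 passed by adjusted p alone (44.7% of all genes) and 5 by unadjusted p, and the largest difference was that of Cdkn2b (-0.91 ± 0.142). Ccng1 (0.07 ± 0.0342, adjusted p = 0.125), Mdm2 (0.05, adjusted p = 0.386), Cdkn1b (0.02, adjusted p = 0.877) and Cdkn2c (-0.03, adjusted p = 0.563) did not pass the test there.

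The effect of pNSC against brain NSC differed between experiments by the test of the difference itself. For tail, Nes-GFP minus Wnt1Cre-mTmG, it was larger by 2.38 ± 0.145 on the log2 scale for Cdkn2a (adjusted p = 1.04e-16), 1.497 ± 0.192 for Cdkn2b (adjusted p = 2.37e-08) and 1.22 ± 0.0488 for Ccng1 (adjusted p = 2.79e-22), 3 of 9 genes beside 16.0% of all genes. For lung, Nes-GFP minus Sox2-GFP, it was 1.65 ± 0.216 for Cdkn2b (adjusted p = 3.9e-08), -1.21 ± 0.0455 for Cdkn1a (adjusted p = 6.61e-23) and -1.34 ± 0.0490 for Ccng1 (adjusted p = 3.38e-23), 3 of 9 beside 14.1%. For Ccng1 and Cdkn1a in lung, the pNSC lines differed by 0.07 and -0.13 and the brain NSC lines by 1.40 and 1.08, so the difference between effects lay mostly in the brain NSCs. The donors of these lung lines also differed in age.

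**Figure D3:**
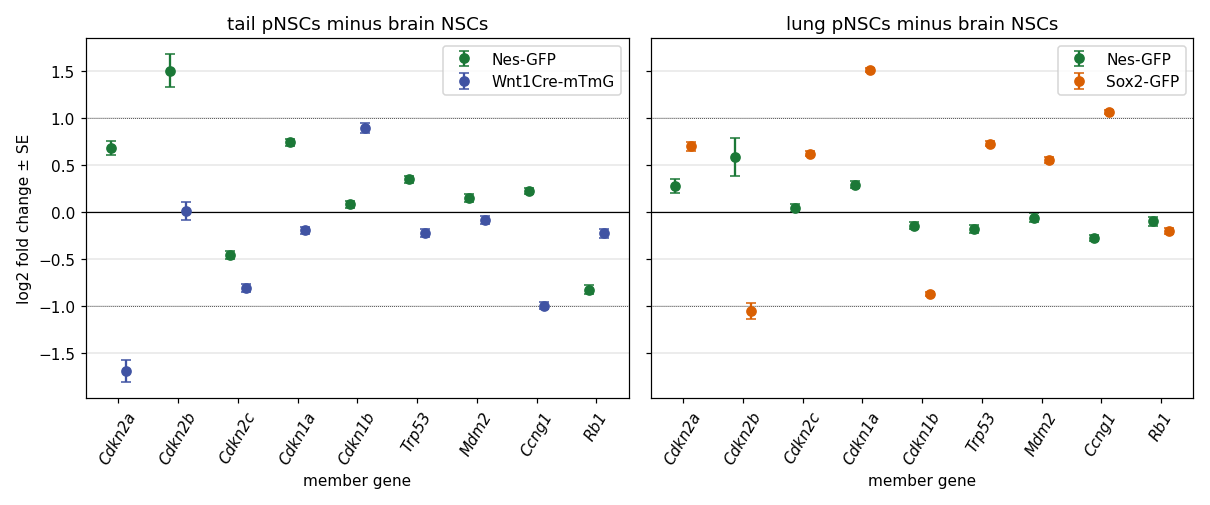
Log2 fold change of pNSCs against brain NSCs, with standard errors, for each gene in tail (Nes-GFP and Wnt1Cre-mTmG) and lung (Nes-GFP and Sox2-GFP), with dotted lines at 1 and -1. The pair of points is farthest apart for Cdkn2a in tail (0.68 and -1.69) and for Cdkn2b in lung (0.58 and -1.05).

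Sox2-GFP brain NSCs and Wnt1Cre-mTmG tail pNSCs, a pair chosen after their values were seen, both lay outside the range of the other 6 NSC and pNSC group means in 6 of the 9 genes. Cdkn1b was higher, and Cdkn2c, Cdkn1a, Trp53, Mdm2 and Ccng1 were lower, beside 23.4% of all tested genes outside that range in either direction. Because the pair was picked from these values, that share is no yardstick for the 6 genes. For Cdkn1a this holds narrowly, since Wnt1Cre-mTmG tail pNSCs had 268 cpm against 272 in Nes-GFP brain NSCs, while Sox2-GFP brain NSCs had 129. It is also narrow for Mdm2, where samples of Wnt1Cre-mTmG tail pNSCs (71.4 to 76.1 cpm) overlapped those of Wnt1Cre-mTmG brain NSCs (75.1 to 83.5). For Cdkn2c, Sox2-GFP brain NSCs had 92.05 cpm against 96.7 in Nes-GFP tail pNSCs. In group means they had 206 ± 4.88 and 222 ± 4.30 cpm (SD, n = 3 each) of Cdkn1b against 110 to 132 in the others, and 214 and 272 cpm of Ccng1 against 441 to 659. The summed level of 12 proliferation markers was 1671 and 2016 cpm in these groups and 3012 to 4240 in the others. Ccnd1, cyclin D1, was at 175 and 323 cpm against 723 to 1448, and Cdkn1c, a further Cip/Kip inhibitor, at 13.5 and 18.9 against 0.0837 to 5.66. Of the 32 other p53 target genes, 14 were lower than the other 6 groups in both, 2 were higher and 16 were neither. Examples are Eda2r (58.8 and 54.6 cpm against 127 to 197) and Pidd1 (8.57 and 8.04 against 26.9 to 49.1) on the lower side and Sesn2 (215 and 410 against 104 to 163) on the higher. The mesenchymal markers set these groups apart from each other, at 1.23 cpm in Sox2-GFP brain NSCs and 378 in Wnt1Cre-mTmG tail pNSCs, and their part was not tested. Total counts were 17026140 or more in all 6 samples of these groups.

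**Figure D4:**
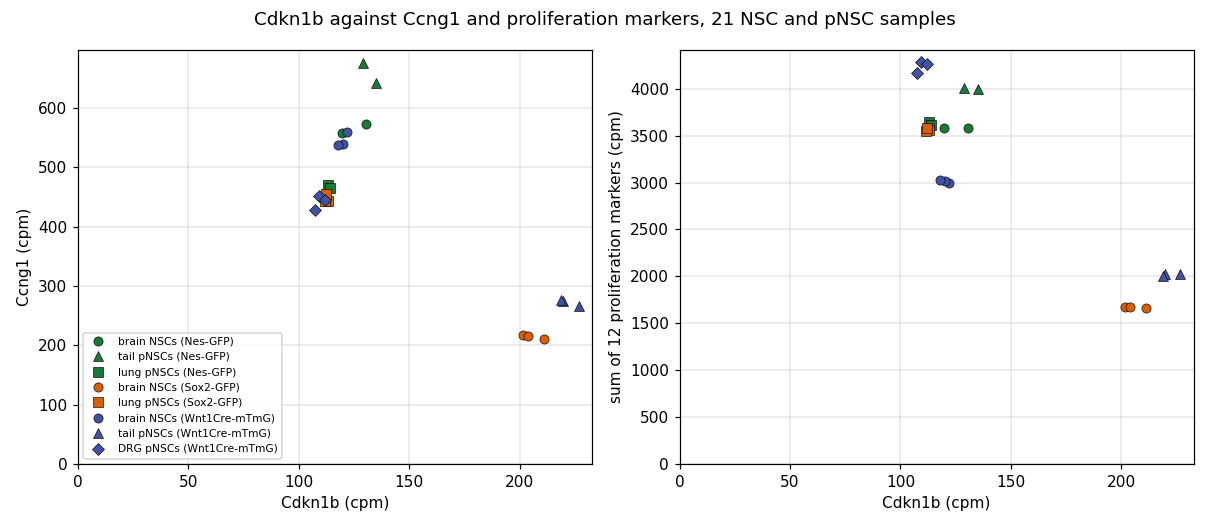
Cdkn1b against Ccng1 (left) and against the sum of 12 proliferation markers (right) in the 21 NSC and pNSC samples, in cpm, with 1 colour per group. Sox2-GFP brain NSCs and Wnt1Cre-mTmG tail pNSCs sit apart, at 202 cpm of Cdkn1b or more and 276 cpm of Ccng1 or less.

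The neighbours of these genes in the pathway were read from 8 further lists. Of 32 other p53 target genes, 13 were called higher and 1 lower in Sox2-GFP lung pNSCs against brain NSCs, with a median log2 difference of 0.75 beside 0 over all genes, of which 15.7% were called. They included Ptprv (3.46), Pidd1 (2.51 ± 0.0653), the gene of the p53-induced death domain protein, and the death receptor gene Tnfrsf10b (1.81). In Wnt1Cre-mTmG tail pNSCs 3 were higher and 5 lower (median -0.23, beside 18.2% of all genes), with Gdf15 (3.55) and Sfn (2.76) higher and Pidd1 (-2.10) lower. In Nes-GFP tail pNSCs 2 were higher and 2 lower (median 0.28, beside 10.9% of all genes), in Nes-GFP lung pNSCs 1 and 3 (median 0.04, beside 8.71%), and in DRG pNSCs 2 and 2 (median -0.03, beside 9.53%). The calls were thus mostly higher in the Sox2-GFP comparison, and mixed and no more than 8 of 32 in the other 4. Between brain NSC lines, 11 were higher and 3 lower in Nes-GFP than in Sox2-GFP (19.0% of all genes). In Sox2-GFP against Wnt1Cre-mTmG brain NSCs, 2 were higher and 10 lower (15.5%). Between the lung pNSC lines, 0 were higher and 4 lower in Nes-GFP than in Sox2-GFP (9.94%). Line and experiment cannot be told apart in these.

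**Figure D5:**
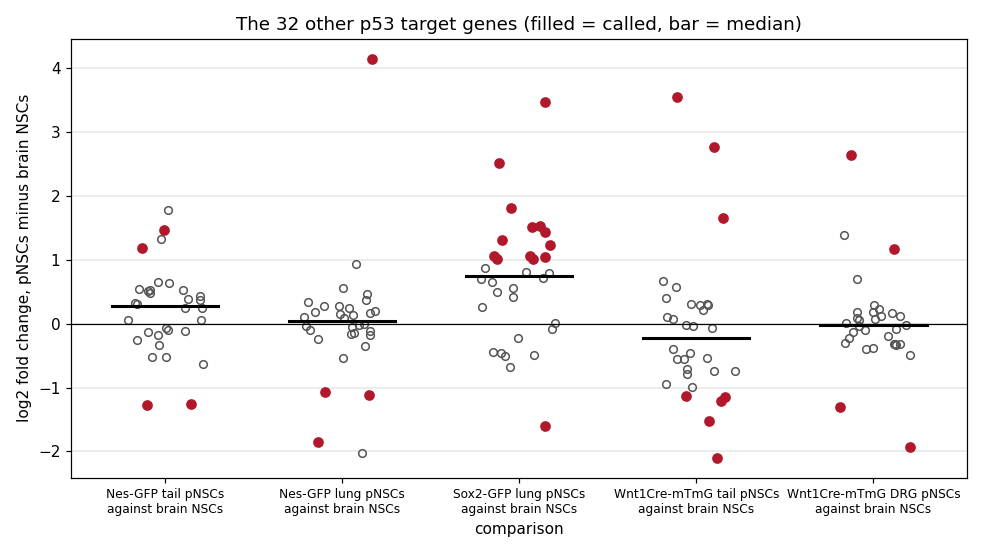
Log2 fold change of 32 other p53 target genes in the 5 comparisons of pNSCs against brain NSCs, with filled points for calls and a bar at the median. The median is 0.75 in Sox2-GFP lung pNSCs and between -0.23 and 0.28 in the other 4.

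Against tissue, the other p53 targets split, with 10 higher and 7 lower in tail (median 0.64), and 13 and 12 in Nes-GFP lung and 12 and 11 in Sox2-GFP lung, where 46.7%, 55.0% and 56.3% of all genes were called. Eda2r was higher by 6.35 over tail cells on the log2 scale, while the epithelial genes Perp (-11.54) and Sfn (-10.86) were lower, beside 3900 to 3996 cpm of the 4 epithelial markers in tail cells. Against NCSCs, tail pNSCs had 5 higher and 5 lower (37.9% of all genes) and DRG pNSCs 9 and 4 (38.3%), with NCSC replicate 3 included. NCSCs had 4 higher and 7 lower than brain NSCs (36.9% of all genes), and tail pNSCs 2 higher and 5 lower than DRG pNSCs (18.0%).

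Among G1 cyclins and kinases (10 genes), 6 were called higher and 1 lower in Sox2-GFP lung pNSCs against brain NSCs (15.7% of all genes), with Ccnd1 (2.69) and Ccne2 (2.196) higher and Cdk6 (-2.94) lower. In Wnt1Cre-mTmG tail pNSCs the list went the other way, with 1 higher and 3 lower (18.2% of all genes): Cdk6 rose (2.63), and Ccnd1 (-2.16) and Ccne2 (-1.99) fell. In Nes-GFP tail pNSCs only Cdk6 was called, higher (1.17), and in Nes-GFP lung pNSCs only Cdk6, lower (-1.07). In DRG pNSCs only Ccnd2 was called, lower (-1.04). The 12 genes of the RB family and E2F group had 3 called higher in Sox2-GFP lung pNSCs, led by E2f1 (2.02), and 2 called lower in Wnt1Cre-mTmG tail pNSCs, E2f2 (-1.31) and E2f7 (-1.11).

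All 12 proliferation markers passed by adjusted p, higher, in Sox2-GFP lung pNSCs (7 past both thresholds, median 1.07) and in DRG pNSCs (median 0.50), where 65.5% and 45.9% of all genes passed by adjusted p and 15.7% and 9.53% passed both thresholds. All 12 passed lower in Wnt1Cre-mTmG tail pNSCs (median -0.57), beside 65.5% of all genes in either direction. In the Nes-GFP experiment 10 passed higher in tail pNSCs (median 0.20), and 3 higher and 2 lower in lung pNSCs (median 0.03), beside 49.1% and 40.3% of all genes. Between tail and DRG pNSCs 7 were called lower in tail (18.0% of all genes called), led by Pcna (-1.42), Mki67 (-1.37) and Cdk1 (-1.31). Against tissue 9 were called higher in tail and all 12 in each lung comparison, beside 46.7%, 55.0% and 56.3% of all genes.

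The other CDK inhibitors, Cdkn1c and Cdkn2d, gave calls for Cdkn1c alone against brain NSCs, lower in Nes-GFP lung pNSCs (-3.40) and Sox2-GFP lung pNSCs (-3.11) and higher in Wnt1Cre-mTmG tail pNSCs (3.97) and DRG pNSCs (2.22). The largest difference was from tail cells, with Cdkn1c at 0.593 cpm in Nes-GFP tail pNSCs against 282 (log2 -8.97). Of the p53 regulators and kin (12 genes, 10 tested in the Wnt1Cre-mTmG experiment), 3 were called higher in Sox2-GFP lung pNSCs, and 1 (Trp73, 1.63) in Nes-GFP lung pNSCs.

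At the Cdkn2a locus, 7 of its known repressors and 4 neighbouring genes were read. Calls among the repressors, higher and lower, were 0 and 1 in Nes-GFP tail, 2 and 0 in Nes-GFP lung, 1 and 0 in Sox2-GFP lung, 1 and 1 in Wnt1Cre-mTmG tail and 0 and 2 in DRG pNSCs, against brain NSCs, beside 10.9%, 8.71%, 15.7%, 18.2% and 9.53% of all genes. Tbx2 fell in Nes-GFP tail pNSCs (-2.59) and rose in Nes-GFP lung pNSCs (1.05) and Wnt1Cre-mTmG tail pNSCs (1.72). Against tissue, 2 repressors were called higher and 3 lower in tail, and 4 and 3 in Nes-GFP lung and 3 and 3 in Sox2-GFP lung. Bmi1, a Polycomb subunit, was higher in Nes-GFP tail pNSCs than in tail cells (1.95) and Tbx2 lower (-4.83), and the 3 lower in Nes-GFP lung pNSCs were Tbx2 (-5.81), Tbx3 (-6.57) and Cbx7 (-4.00). Of the neighbours, only Dmrta1 was called against brain NSCs, lower in Nes-GFP tail (-2.21), Sox2-GFP lung (-2.73), Wnt1Cre-mTmG tail (-2.74) and DRG pNSCs (-1.29). Mtap, Klhl9 and Elavl2 were higher than in tail cells (1.58, 1.53 and 4.51).

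Over the 8 NSC and pNSC group means on a log scale, the p53 gene and its targets varied together, as a description with no test. Pearson's r was 0.895 for Trp53 and Mdm2, 0.876 for Mdm2 and Ccng1, 0.847 for Cdkn1a and Mdm2 and 0.824 for Cdkn1a and Ccng1. Cdkn1b went against Cdkn2c (r = -0.905) and Ccng1 (r = -0.810). These points share libraries, the brain NSCs stand beside the pNSCs of their own experiment, and 2 of the 8 groups carry most of the Cdkn1b range. The same 2 groups were the lowest of the 8 for Trp53, Mdm2, Ccng1 and Cdkn1a. With tissue cells and NCSCs included (11 groups), r was 0.65 for Trp53 and Mdm2 and 0.683 for Mdm2 and Ccng1. It was 0.558 for Cdkn1a and Mdm2, 0.725 for Cdkn1a and Ccng1, and -0.01 for Cdkn1b and Cdkn2c.

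Across all 11 group means, 11999 genes with at least 5 cpm were searched for patterns most like each gene, by Pearson's r. Cdkn2a was nearest to Prmt6 and Zwint (r = 0.982), Cdkn2c to Acap3 (0.987), Ccng1 to Zranb2 (0.980), Cdkn1b to Fbxo11 (0.969) and Cdkn1a to Tyms (0.967). Trp53 was nearest to Ssr1 and Topors (0.947), Rb1 to Slc4a3 (0.940), Mdm2 to Dcbld2 (0.934) and Cdkn2b to Nhlrc1 (0.920). The tissue groups take part in these values.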

How the data were processed

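Total polyA-selected RNA of 28 samples had been sequenced as single-end reads. According to the labels and the study's methods, the authors aligned them to GRCm38 (HISAT2), annotated them with Cufflinks and deposited raw counts per gene (HTSeq). The strand setting, counting mode and annotation release are not given in the sources used here. Groups were taken from the labels. Counts were tested with edgeR 4.0.16 (R 4.3.3), by the quasi-likelihood test with TMM scaling, after filterByExpr (minimum count 10, minimum total 15), two-sided, with Benjamini-Hochberg adjustment over all genes tested (16948, 16234 and 14448 in the Nes-GFP, Sox2-GFP and Wnt1Cre-mTmG fits, 17393 over all samples, which served for comparisons across experiments). Errors are the SE of the log2 fold change. Intervals cover counting error only. Scripts were tested on simulated data. Members, lists and naming rules were chosen with earlier results of these data known. Named were all 9 members and, of each further list, up to 3 called genes per comparison by size of change, and for each member the genes with the most similar pattern. Alternatives were DESeq2 1.42.0, relative log expression scaling, no filter, no fold threshold, other sets of samples in the fit, a replicate block and leaving out each replicate. Replicate numbers did not pair the samples. Sequences came from RefSeq (GRCm38.p6) and positions from GENCODE.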

Additional observations from a re-analysis of the deposited data

Results flagged for a closer look

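The effect of pNSC against brain NSC differed between experiments, by the test of the difference itself in edgeR, for 3 of the 9 genes in tail and 3 in lung. Of all tested genes, 16.0% in tail and 14.1% in lung were called in the same way. In tail (Nes-GFP minus Wnt1Cre-mTmG), the difference on the log2 scale was 2.37 for Cdkn2a, 1.5 for Cdkn2b and 1.22 for Ccng1. In lung (Nes-GFP minus Sox2-GFP), it was 1.65 for Cdkn2b, -1.21 for Cdkn1a and -1.34 for Ccng1. Each of these 6 values kept its direction and its side of the threshold when any replicate was left out. With 2 to 3 samples per group, single samples were not tested as outliers.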

How the results depend on the processing

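Of 1971 recomputed values of single genes, 1917 kept their direction and side of the threshold, 30 came to pass it, 7 no longer did and 17 changed sign. The 17 were small differences. Cdkn2b in Wnt1Cre-mTmG tail pNSCs against brain NSCs was 0.00 without the filter and -0.034 to 0.059 when a replicate was left out (negative without tail replicate 1 or brain replicate 1 or 2). Against NCSCs, Cdkn2c was -0.029 (relative log expression scaling), -0.028 (DESeq2), -0.012 (no filter) and -0.011 to 0.032 when a replicate was left out, and Ccng1 -0.01 (relative log expression and DESeq2). Between experiments, without 1 replicate, Rb1 was -0.011 to 0.08 and Cdkn2a -0.13 to 0.026 (Nes-GFP against Sox2-GFP brain NSCs), Cdkn1b -0.015 to 0.116 (Nes-GFP against Wnt1Cre-mTmG brain NSCs) and Cdkn2c -0.031 to 0.003 (lung pNSCs). The cause was not tested.

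Without the fold threshold the number of the 9 genes called rose. For pNSCs against brain NSCs it was 8 (Nes-GFP tail), 6 (Nes-GFP lung), 9 (Sox2-GFP lung), 7 (Wnt1Cre-mTmG tail) and 7 (DRG), and against tissue 9 in each. Beside the first 5 counts, 49.1%, 40.3%, 65.5%, 65.5% and 45.9% of all genes passed. The count was 9 between Nes-GFP tail and lung (53.3% of all genes), 8 between Wnt1Cre-mTmG tail and DRG, and 9, 7 and 9 in the NCSC comparisons with brain NSCs, tail pNSCs and DRG pNSCs. Between experiments it was 7, 7 and 9 for brain NSCs, 9 for tail and 5 for lung pNSCs (44.7% of all genes), and 9 and 8 for the differences between effects. The counts printed without a share of all genes cannot be read as a result about these genes.

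Counts close to the threshold moved by 1. Wnt1Cre-mTmG tail pNSCs against brain NSCs had 2 calls under relative log expression, DESeq2, no filter, the fit of all 28 samples and the fit of both groups alone, where Ccng1 was -1.009 to -1.002. DRG pNSCs against brain NSCs had 1 (Cdkn2b) with no filter (-1.007) and in the fit of both groups alone (-1.009), and tail pNSCs against NCSCs had 2 (Cdkn2b) under relative log expression (-1.007) and DESeq2 (-1.01). Leaving out each replicate gave 1 to 2 calls, 0 to 1 and 1 to 2 in these comparisons, 0 to 1 between Nes-GFP tail and lung pNSCs (Cdkn2b 1.009 without tail replicate 1), 1 to 3 between Wnt1Cre-mTmG tail and DRG pNSCs, 2 to 3 in Sox2-GFP lung pNSCs and 2 to 3 for NCSCs against brain NSCs. The cause was not tested. A group left with 1 sample is assumed to vary like the others. With the replicate number as a block, no count of calls among the 9 genes changed (1 in Nes-GFP tail pNSCs, 3 in Sox2-GFP lung pNSCs and 1 in Wnt1Cre-mTmG tail pNSCs, each against brain NSCs), although the numbers do not pair the samples (correlation of deviations -0.047 to 0.095, none of 20, 7 and 18 pairs over 0.1 in the 3 experiments). Depth limits Cdkn2a in tail cells, where 3 counts are 0.168 and 0.191 cpm.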
